A study of Homo sapiens with 34 samples.

Results

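The genes described here are ALK and RET, the best known receptor tyrosine kinases of neuroblastoma, with the receptor LTK, the RET co-receptors GFRA1, GFRA2 and GFRA3, and the ligands ALKAL1, ALKAL2, GDNF and ARTN. They were chosen by name, 10 of 19970 protein-coding genes. For each gene, histone peaks were read at its start sites (1 kb either side of every annotated start), over its body and within 100 kb of the body. The data were lists of ChIP-seq peaks for the histone marks H3K4me1, H3K4me2, H3K4me3, H3K27ac and H3K27me3 in KELLY, a MYCN-amplified human neuroblastoma cell line. Cells of both groups carried a hairpin (shRNA) that silences the co-repressor RUNX1T1 once doxycycline is given, and they received either the solvent DMSO or doxycycline for 72 h. There were 3 libraries per mark and treatment, 30 lists in all, with 4 inputs used only for calling. The model is 1 cell line, and no doxycycline-treated cells without the hairpin were among the samples analysed here, so knockdown and doxycycline itself cannot be told apart. Expression was not analysed here.

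ALK and LTK are receptors for the secreted proteins ALKAL1 and ALKAL2, and activating ALK mutations drive part of neuroblastoma. RET signals with a GPI-anchored co-receptor of the GFRA family, GDNF acting mainly through GFRA1 and ARTN through GFRA3, while GFRA2 mainly binds neurturin. Both pathways feed the RAS-ERK and PI3K cascades and support the growth and survival of sympathetic and enteric neuroblasts.

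Peaks were called at a depth (the smaller of ChIP and input reads) of 71.9 to 81.1 M reads for the 15 DMSO lists and only 57.0 to 63.4 M for the 15 doxycycline lists, so depth cannot be told apart from treatment. The H3K27me3 lists were of differing kinds, with fragments estimated at 256 to 280 bp in DMSO replicate 1 and doxycycline replicates 1 and 2, and 105 to 112 bp in DMSO replicates 2 and 3 and doxycycline replicate 3. All 9 adrenergic neuroblastoma marker genes examined had H3K4me3 and H3K27ac at a start in 6 of 6 libraries, and none had H3K27me3 in any. None of the 9 liver, blood, muscle and epithelial markers had H3K27ac at a start in any library. With 3 libraries against 3, an exact two-sided permutation test over 20 assignments cannot give a p below 0.1, and no comparison here could pass 0.05. A difference is called below only where the 3 values of each treatment did not overlap, a description that is read against the share of all genes that met it.

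The bases before the RefSeq start of 6 of the genes are shown because their chromatin at the start differs most: ALK and RET with active marks, LTK and ALKAL2 with H3K4me3 and H3K27me3 together, GDNF with all 5 marks and GFRA3 with H3K27ac in DMSO only. They are from GRCh38.p14, 5′ to 3′ on the strand of the gene, in lower case, with capitals for CATCTG (a HAND2-type E-box) and TGTGGT (a RUNX motif).
ALK, chr2:29921587-29921836, minus strand: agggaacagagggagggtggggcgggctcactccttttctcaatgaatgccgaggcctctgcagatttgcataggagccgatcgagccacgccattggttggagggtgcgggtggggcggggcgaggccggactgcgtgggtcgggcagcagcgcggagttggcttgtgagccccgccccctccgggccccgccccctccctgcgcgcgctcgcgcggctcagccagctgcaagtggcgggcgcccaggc
LTK, chr15:41513888-41514077, minus strand: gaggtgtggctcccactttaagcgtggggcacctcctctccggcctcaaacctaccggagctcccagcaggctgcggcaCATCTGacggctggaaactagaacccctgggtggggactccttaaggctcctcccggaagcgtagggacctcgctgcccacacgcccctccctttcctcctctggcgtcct
ALKAL2, chr2:288092-288341, minus strand: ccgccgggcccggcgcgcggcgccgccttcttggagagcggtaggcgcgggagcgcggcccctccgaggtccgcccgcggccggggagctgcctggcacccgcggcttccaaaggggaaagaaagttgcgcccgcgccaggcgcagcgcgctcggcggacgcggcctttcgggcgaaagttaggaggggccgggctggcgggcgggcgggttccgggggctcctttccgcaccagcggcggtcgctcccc
RET, chr10:43076819-43077063, plus strand: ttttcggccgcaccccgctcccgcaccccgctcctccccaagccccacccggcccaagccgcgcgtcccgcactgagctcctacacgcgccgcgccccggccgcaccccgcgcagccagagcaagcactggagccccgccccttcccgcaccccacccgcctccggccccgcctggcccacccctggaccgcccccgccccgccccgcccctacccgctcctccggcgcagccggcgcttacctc
GFRA3, chr5:138274622-138274871, minus strand: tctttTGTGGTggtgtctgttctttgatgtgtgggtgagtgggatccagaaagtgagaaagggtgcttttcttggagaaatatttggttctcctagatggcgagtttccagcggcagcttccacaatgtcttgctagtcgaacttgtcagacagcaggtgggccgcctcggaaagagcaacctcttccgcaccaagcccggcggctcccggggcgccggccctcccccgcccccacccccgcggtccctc
GDNF, chr5:37840042-37840291, minus strand: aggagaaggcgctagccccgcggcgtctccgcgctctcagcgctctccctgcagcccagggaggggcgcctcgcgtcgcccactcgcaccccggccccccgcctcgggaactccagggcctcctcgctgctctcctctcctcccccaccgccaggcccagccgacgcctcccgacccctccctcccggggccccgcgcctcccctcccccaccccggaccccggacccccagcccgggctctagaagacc

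The motifs searched, on both strands, were CATCTG for HAND2-type E-boxes, CACGTG for MYC-type E-boxes, TGTGGT for RUNX factors, GATAA for GATA factors and TAATTA for homeodomain factors, none of which contains another. In the bases shown, CATCTG occurred once before LTK and TGTGGT once before GFRA3. In the full RefSeq windows, 250 bases before to 50 after the start nearest the first annotated one, ALK also held 1 CATCTG and GFRA1 held 2 CATCTG and 1 TAATTA, while ALKAL2, RET, GDNF and ARTN held no match. In windows of the same length, 14.7% of 35116 RefSeq promoters held CATCTG, 7.26% CACGTG, 13.1% TGTGGT, 22.7% GATAA and 4.84% TAATTA. The ratio of observed to expected CpG in these windows was 1.09 for ALKAL2, 1.03 for RET, 0.81 for GDNF, 0.78 for GFRA3, 0.76 for ALK, 0.61 for GFRA1 and 0.47 for both LTK and ARTN, against a median of 0.58 over all promoters (quartiles 0.23 and 0.86). CpG density therefore did not sort the genes by their marks, since ALKAL2 and RET were both CpG-rich and carried different marks. For GFRA1, which has 4 promoters listed, the window was the one nearest its first annotated start. No H3K4me2, H3K4me3 or H3K27ac peak was called at that start in any library, so its motifs and CpG ratio may not describe its marked starts.

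The start sites fell into distinct chromatin states that hardly changed with treatment. All 10 genes had H3K4me1, H3K4me2 and H3K4me3 at a start in 6 of 6 libraries. Most genes do: the share of all genes with a peak in each of the 3 libraries was 66.3% in DMSO and 66.1% in doxycycline for H3K4me1, 72.3% and 73.8% for H3K4me2, and 72.6% and 72.3% for H3K4me3. For H3K27ac the share was 65.8% and 65.2%, against 7 and 6 of the 10 members, and for H3K27me3 20.9% and 23.2%, against 4 and 4. ALK, RET, GFRA2 and ARTN also had H3K27ac in 6 of 6 and H3K27me3 in 0 of 6, a pattern over the 30 libraries shared with 38.5% of all protein-coding genes (7698 of 19970). LTK, ALKAL1 and ALKAL2 had H3K27me3, the Polycomb mark, in 6 of 6 and H3K27ac in 0 of 6, a pattern of 841 genes (4.21%).

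GFRA1 had the active pattern with H3K27me3 in DMSO replicate 3 alone, a pattern of 293 genes (1.47%). That H3K27me3 peak was weak, 0.36 kb wide at percentile 6.8 with a −log10 q-value of 1.4. It lay at an internal start, 21.9 kb into the gene. GDNF had every mark in all 30 libraries (650 genes, 3.25%). GFRA3 was the member whose state differed by treatment: its start had an H3K27ac peak in 3 of 3 libraries under DMSO and in 0 of 3 under doxycycline. Of the 14274 genes with an H3K27ac start-site peak in any library, 0.308% showed that change. Its full pattern was found in 8 genes (0.0401%).

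**Figure D1:**
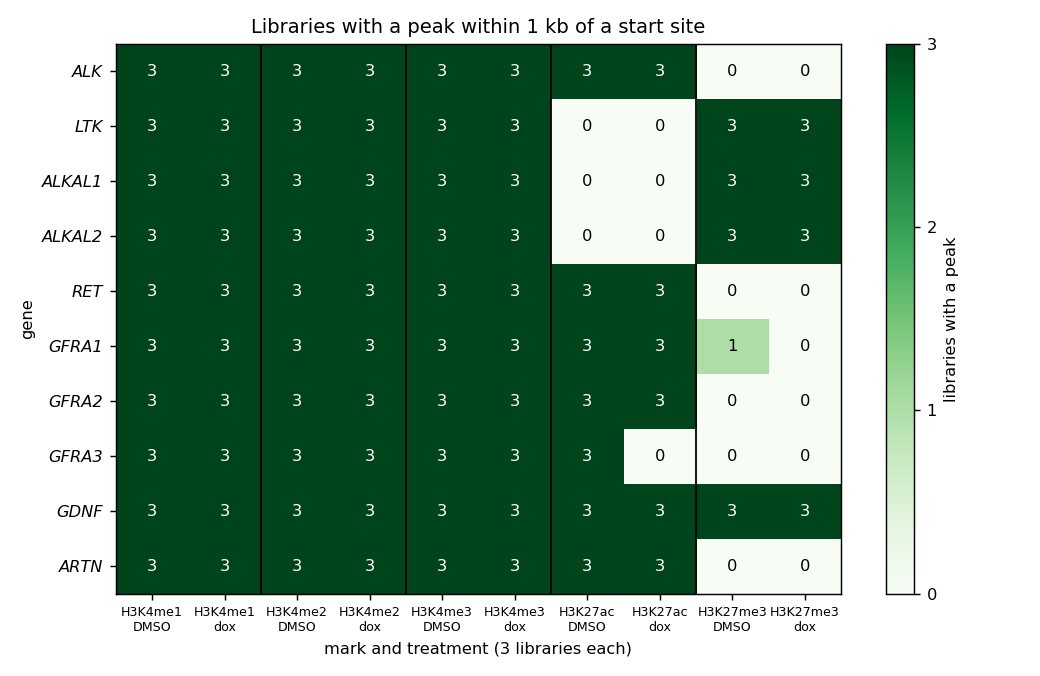
Number of libraries (of 3 per treatment) with a peak within 1 kb of any annotated start, for the 10 genes (rows) and 5 marks in DMSO and doxycycline (columns). GFRA3 goes from 3 to 0 for H3K27ac and GFRA1 from 1 to 0 for H3K27me3, while every other gene and mark has the same number in both treatments.

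The start used matters for several genes, since 2 to 12 starts are annotated per gene. At the outermost start alone, GFRA1 had no H3K4me2, H3K4me3 or H3K27ac in any library, and its H3K4me3 region lay about 3.5 kb downstream, at other annotated starts. ARTN likewise had no H3K4me2 or H3K4me3 at its outermost start, its H3K4me3 region lying about 3.1 kb downstream. For the other 8 genes the states of H3K4me3, H3K27ac and H3K27me3 were the same at the outermost start.

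Over the gene body and 100 kb either side, the length covered by H3K27ac peaks was longer in doxycycline around RET and shorter around GFRA1, GFRA3 and ALKAL2, with no overlap between treatments. The other 6 genes overlapped. Over all genes, 2.93% of 18522 were longer and 13.8% shorter by the same rule, so 3 of 10 shorter stands against a background that was itself mostly toward shorter. The median difference, doxycycline minus DMSO, was 0.67 kb for the 10 genes and -0.235 kb for all genes.

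**Figure D2:**
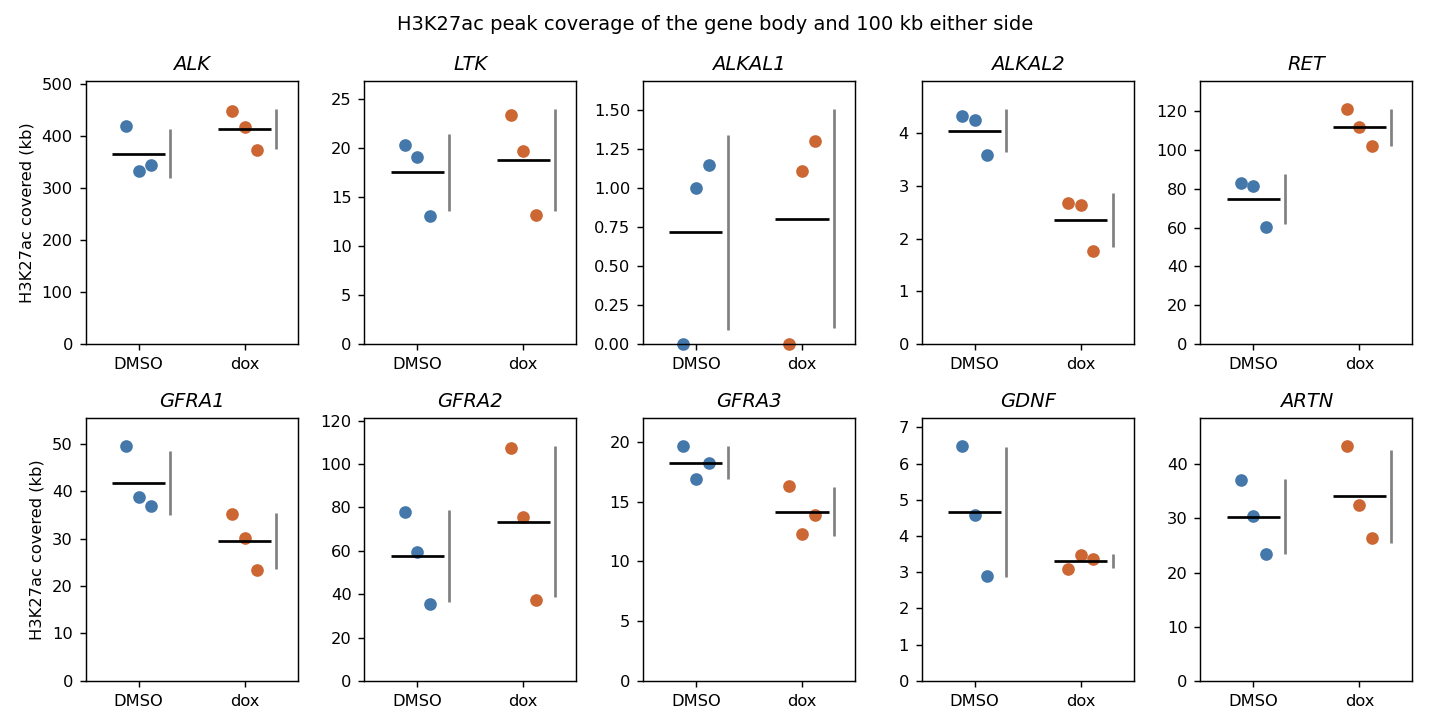
Length covered by H3K27ac peaks in the body and 100 kb either side (kb, linear axis from 0, each panel with its own scale) in the 3 DMSO (blue points) and 3 doxycycline (orange points) libraries for each gene, with black lines for the mean and grey bars for the mean ± SD. The treatments do not overlap for RET (60.1 to 82.9 kb against 102 to 121 kb), GFRA1, GFRA3 and ALKAL2.

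RET (ENSG00000165731.21, chromosome 10, 43077064 to 43130351, plus strand) is the signalling receptor of the GDNF family. H3K27ac covered 82.9, 81.4 and 60.1 kb of its locus in DMSO replicates 1 to 3 and 121, 112 and 102 kb in doxycycline replicates 1 to 3. All 3 doxycycline values were above all 3 DMSO values, with means of 74.8 ± 12.7 and 111 ± 9.35 kb (SD, n = 3 each; ratio 1.49, exact permutation p = 0.1, Benjamini-Hochberg adjusted p = 0.597 over all genes). Of 18522 genes, 38 (0.205%) had a larger rise in kb, although kb differences scale with the size of a locus.

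Both the body and the flanks took part. In the 53.3 kb body the mark covered 30.1, 26.9 and 19.5 kb in DMSO and 49.99, 47.7 and 43.7 kb in doxycycline. The flanks went from 52.8, 54.5 and 40.7 kb to 70.7, 64.0 and 58.3 kb. The widest H3K27ac peak at a RET start, a single called interval, measured 12.1, 10.9 and 6.86 kb in DMSO and 42.0, 32.7 and 23.2 kb in doxycycline. It was wider in every doxycycline library than in any DMSO library.

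**Figure D3:**
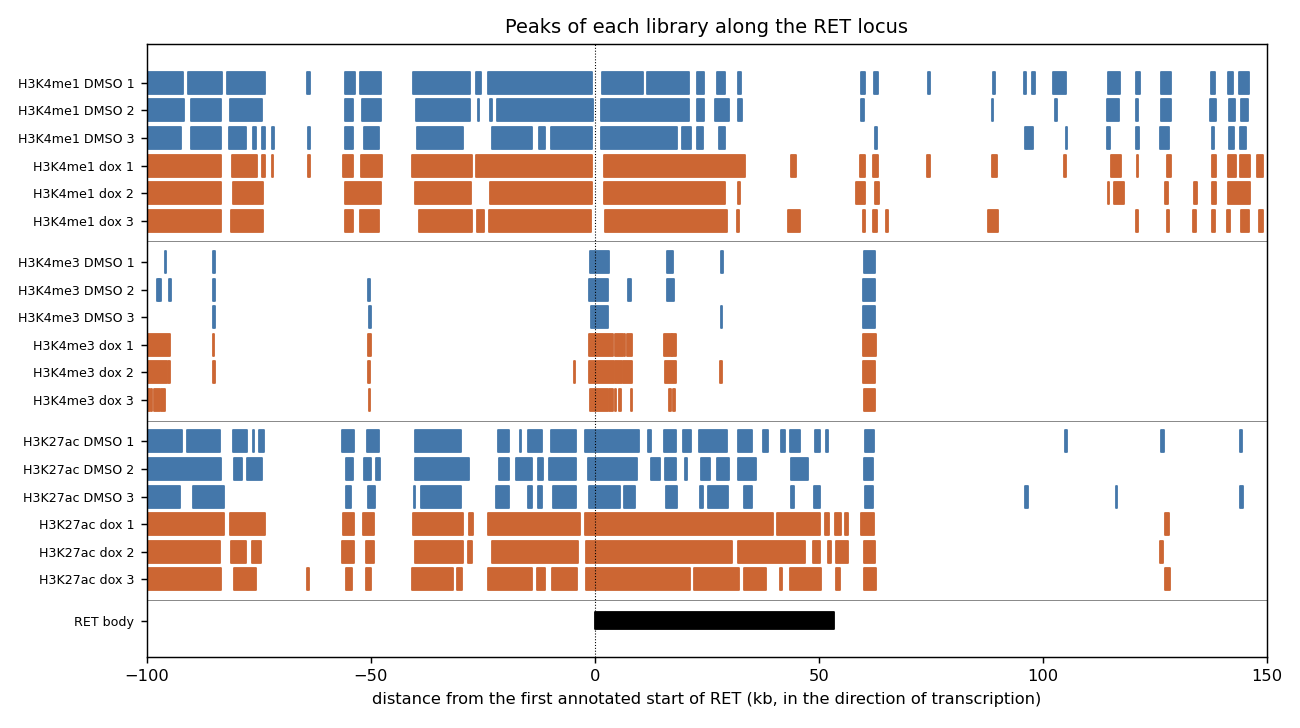
Peaks around RET by distance from its first start (kb), one row per library, for H3K4me1, H3K4me3 and H3K27ac (blue bars DMSO, orange bars doxycycline, black bar the gene body). In doxycycline the H3K27ac peaks join over the body into intervals of up to 42.0 kb at the start, and H3K4me3 widens at the start and near the upstream edge.

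The strength of the RET start-site peak went the other way. The fold enrichment of the strongest H3K27ac peak at a start ranked at percentile 84.7, 88.7 and 93.7 of its list in DMSO and 77.1, 77.4 and 75.7 in doxycycline. The fold enrichment itself was 5.72, 6.55 and 5.76 in DMSO and 5.35, 5.58 and 4.24 in doxycycline, and neither measure overlapped. For broad peaks this value is a mean over the interval, and the intervals were wider in doxycycline. The part of width in the lower rank was not tested. Over all 14274 genes with a start-site H3K27ac peak, 11.8% ranked lower and 6.22% higher by the same rule. With lists cut to equal length the RET ranks overlapped (difference -11.2 percentile points).

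The strongest H3K27ac region away from starts in the RET locus lay about 106 kb upstream by its centre, at the non-coding gene LINC01264 (chromosome 10, 42948741 to 42994206). Its mean percentile over 6 libraries was 97.7, and peaks covered 35.2, 38.5 and 31.4 kb of it in DMSO and 43.3, 43.7 and 41.0 kb in doxycycline. Only the part within 100 kb of RET counts toward the locus. Next to the start, the region from 43053143 to 43073663 was covered over 11.7, 13.2 and 9.75 kb in DMSO and 20.5, 19.2 and 17.2 kb in doxycycline. Both regions were covered over a longer stretch in every doxycycline library than in any DMSO library.

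H3K27ac just past the 3′ end of RET was the only region gained in the 10 loci for this mark, absent from every DMSO list and present in every doxycycline list (chromosome 10, 43130622 to 43133539, intergenic). The peaks were 2.00, 2.49 and 0.92 kb wide and weak, with −log10 q-values of 1.5 to 2.7. The middle of the region is shown because it is the 1 stretch where a new peak appeared. It held no match to the 5 motifs, and its ratio of observed to expected CpG was 0.21 (hg38, plus strand).
RET gained H3K27ac region, chr10:43131931-43132230: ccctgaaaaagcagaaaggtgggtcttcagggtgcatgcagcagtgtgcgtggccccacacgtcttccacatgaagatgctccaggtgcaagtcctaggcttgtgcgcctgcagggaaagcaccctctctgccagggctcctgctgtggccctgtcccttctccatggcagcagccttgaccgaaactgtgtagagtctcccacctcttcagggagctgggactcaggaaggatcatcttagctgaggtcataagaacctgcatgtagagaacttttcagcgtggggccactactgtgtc

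H3K4me3, a promoter mark, also covered more of the RET locus in doxycycline, 20.8, 21.7 and 13.1 kb against 10.1, 12.6 and 8.24 kb in DMSO. The treatments did not overlap, with means of 18.5 ± 4.74 and 10.3 ± 2.17 kb (SD, n = 3; ratio 1.8, exact permutation p = 0.1, adjusted p = 0.985). Of 18871 genes, 0 had a larger difference in kb in the doxycycline direction. By the rule of no overlap, 1.22% of genes were longer and 4.64% shorter.

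The length came from several places. In the body H3K4me3 covered 4.74, 5.25 and 3.24 kb in DMSO and 9.77, 10.7 and 5.32 kb in doxycycline. At LINC01264, about 98.2 kb upstream, it covered 0.61, 2.39 and 0.44 kb in DMSO and 6.75, 6.53 and 4.21 kb in doxycycline, counting the region whole although the locus ends within it. In the intron about 6.3 kb after the start it covered 0, 0.70 and 0 kb in DMSO and 3.34, 3.62 and 0.84 kb in doxycycline. None of these places overlapped between treatments. Within 50 kb of RET the H3K4me3 lengths did overlap (difference 4.45 kb).

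H3K4me1 over the RET locus overlapped between treatments, at 110, 99.3 and 86.8 kb in DMSO and 117, 107 and 107 kb in doxycycline. In the body alone it did not, at 22.5, 24.9 and 21.7 kb in DMSO and 32.4, 27.6 and 30.5 kb in doxycycline. Taken for each treatment on its own, the H3K4me1 regions of the RET locus with a peak in 3 of 3 libraries numbered 17 in DMSO and 12 in doxycycline. Of these, 5 and 2 had H3K27ac without H3K4me3 or H3K27me3, 7 and 3 had none of these marks, and 5 and 7 had H3K4me3. With regions merged over all 6 libraries instead, 12 had a peak in 3 of 3 DMSO libraries and 12 in 3 of 3 doxycycline libraries, so the total was not lower. The part of peaks joining in the lower counts taken per treatment was not tested. H3K27me3 was absent from RET starts in all 6 libraries, and the locus held 3.07 ± 0.517 kb of it in DMSO and 3.73 ± 0.562 kb in doxycycline, with overlap.

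GFRA1 (ENSG00000151892.16, chromosome 10, 116056925 to 116276803, minus strand), the main co-receptor for GDNF, moved opposite to RET for H3K27ac. Peaks covered 49.5, 38.9 and 36.9 kb of the locus in DMSO and 35.1, 30.1 and 23.3 kb in doxycycline, without overlap (means 41.8 ± 6.78 and 29.5 ± 5.90 kb, SD, n = 3; ratio 0.706, exact permutation p = 0.1). The loss lay in the flanks, with 29.0, 19.1 and 21.4 kb in DMSO and 12.0, 8.09 and 8.93 kb in doxycycline. The body held 20.5, 19.7 and 15.5 kb and 23.03, 21.98 and 14.4 kb, which overlapped and had a mean difference of 1.24 kb in the other direction. With 50 kb either side in place of 100 kb, the H3K27ac lengths of the treatments also overlapped.

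One region about 274 kb downstream of the first GFRA1 start was covered over 6.78, 5.82 and 5.99 kb in DMSO and 1.39, 1.15 and 0.83 kb in doxycycline. The strongest region away from starts, at 115979828 to 115983997, stayed covered over 3.38 to 3.90 kb in DMSO and 3.09 to 3.55 kb in doxycycline. Its percentile was 95.4, 92.2 and 91.7 in DMSO and 79.5, 70.5 and 65.1 in doxycycline, a lower rank at much the same width. At the GFRA1 starts the H3K27ac percentile was 97.3, 94.3 and 93.7 in DMSO and 97.6, 87.5 and 95.5 in doxycycline, and the treatments overlapped.

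H3K4me1, which marks enhancers, was the only mark besides H3K27ac called for GFRA1. It covered 90.0, 72.3 and 76.6 kb in DMSO and 68.5, 47.5 and 55.7 kb in doxycycline, without overlap. The separation lay in the flanks, with 44.28, 35.16 and 38.03 kb in DMSO and 26.74, 18.55 and 22.8 kb in doxycycline. In the body, within 50 kb, or at a −log10 q of 3 or more, the treatments overlapped. GFRA1 was the only member called for H3K4me1 coverage in either direction, against 4.99% of 19606 genes shorter and 1.08% longer. The consensus H3K4me1 regions (a peak in 3 of 3 libraries) in its locus numbered 33 in DMSO and 25 in doxycycline, of which 21 and 14 lacked H3K27ac, H3K27me3 and H3K4me3.

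**Figure D4:**
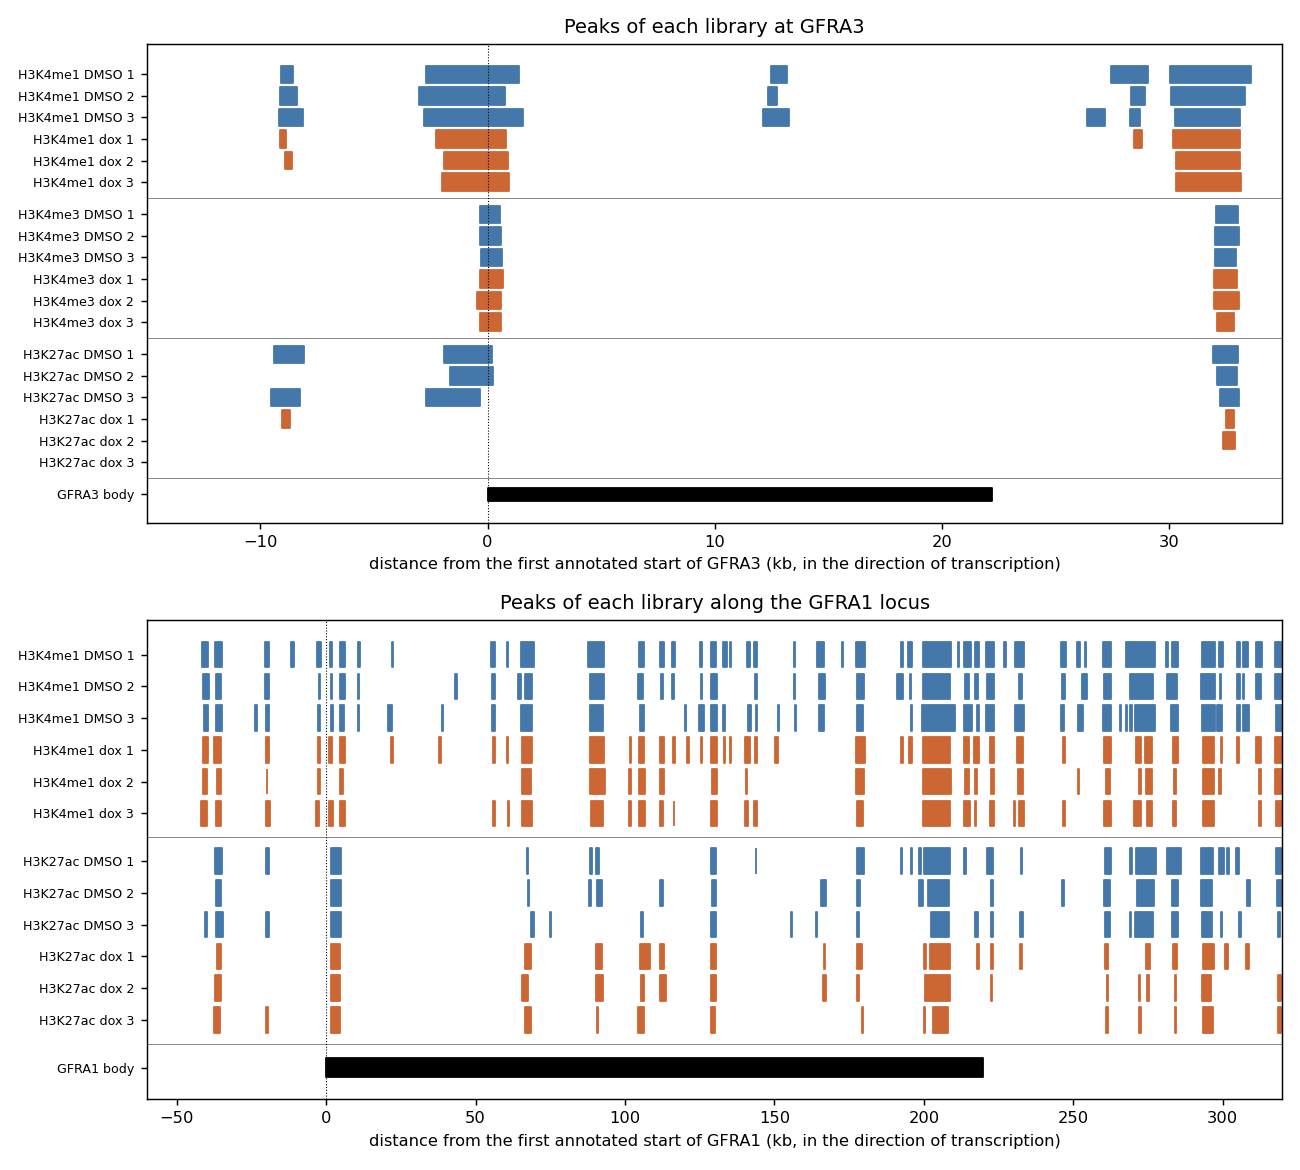
Peaks at GFRA3 (upper panel, H3K4me1, H3K4me3 and H3K27ac) and along GFRA1 (lower panel, H3K4me1 and H3K27ac) by distance from the first annotated start (kb), one row per library, with blue bars for DMSO, orange bars for doxycycline and a black bar for the gene body. The GFRA3 start has H3K27ac in the 3 DMSO rows and in no doxycycline row, while the flanks downstream of GFRA1 hold fewer H3K27ac peaks in doxycycline.

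GFRA3 (ENSG00000146013.11, chromosome 5, 138252380 to 138274621, minus strand), the co-receptor for artemin, lost its start-site H3K27ac region (138274373 to 138277347). The peaks of the 3 DMSO libraries were 2.08, 1.9 and 2.38 kb wide, at percentile 50.6, 44.5 and 66.0, each lying mostly upstream of the start, with −log10 q-values of 3.1 to 4.6. In doxycycline no peak was called there, which says only that none passed the caller's threshold at this depth. H3K4me3 at the same start was 0.89, 0.92 and 0.93 kb wide in DMSO and 0.97, 1.06 and 0.92 kb in doxycycline, so the promoter mark stayed while H3K27ac was not called.

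The H3K4me1 percentile at the GFRA3 start was also lower, 96.5, 92.6 and 92.5 in DMSO against 71.9, 84.2 and 72.8 in doxycycline, and no library of either treatment lay within the range of the other. H3K27ac over the locus was 19.7, 16.9 and 18.2 kb in DMSO and 16.3, 12.3 and 13.9 kb in doxycycline. Nearly all of it lay in the flanks, where 6 other coding genes start, and the body held 0.25 kb or less in each library. Per 100 Mb covered in its list, the locus length overlapped between treatments.

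GFRA2 (ENSG00000168546.11, chromosome 8, 21690398 to 21812357, minus strand), the co-receptor for neurturin, had an H3K27ac region of 20.7 kb at internal starts. Its start-site percentile was 96.5, 94.6 and 94.5 in DMSO and 90.6, 92.7 and 90.3 in doxycycline, lower without overlap. The fold enrichment of the same peaks was 9.79, 8.28 and 5.98 in DMSO and 9.96, 9.56 and 6.43 in doxycycline, higher in each same-numbered pair, so the lower rank did not come with lower fold enrichment. At the outermost GFRA2 start the percentile was 91.4, 90.6 and 85.8 in DMSO and 88.0, 86.5 and 82.9 in doxycycline, with overlap. With lists of equal length the ranks over all GFRA2 starts also overlapped. The covered length was 77.9, 59.5 and 35.5 kb in DMSO and 107, 75.6 and 37.5 kb in doxycycline, which overlapped widely.

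GDNF (ENSG00000168621.15, chromosome 5, 37812677 to 37840041, minus strand) is the founding ligand of RET and the member with every mark at its starts. The percentile of its strongest start-site H3K4me3 peak, which lay at the first start, was 57.0, 55.7 and 48.2 in DMSO and 93.3, 80.9 and 80.8 in doxycycline. Doxycycline was higher without overlap (means 53.6 ± 4.75 and 85.0 ± 7.19, SD, n = 3; exact permutation p = 0.1, adjusted p = 0.6), where 7.53% of 14920 genes were higher and 9.14% lower. The fold enrichment was 23.6, 24.8 and 13.5 in DMSO and 48.0, 40.6 and 24.2 in doxycycline, higher in each same-numbered pair but with overlap. The widest start-site H3K4me3 peak was 1.78, 3.51 and 1.95 kb in DMSO and 3.71, 3.76 and 3.70 kb in doxycycline. The caller split the mark into 3, 2 and 3 start-site peaks in DMSO and 2, 2 and 2 in doxycycline. Together the peaks measured 4.13, 4.66 and 4.03 kb in DMSO and 4.74, 4.63 and 4.47 kb in doxycycline, with overlap. The H3K4me3 region at the downstream start (37834113 to 37835349) did not rise. Its percentile was 42.9, 43.8 and 35.2 in DMSO and 34.8, 36.4 and 6.0 in doxycycline, lower in each same-numbered pair but with overlap.

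The Polycomb mark at GDNF covered a longer stretch in doxycycline, 2.51, 1.71 and 1.97 kb in DMSO and 4.09, 2.97 and 3.02 kb in doxycycline. GDNF was the only member called for H3K27me3 coverage, against 0.464% of 19187 genes longer and 0.099% shorter. Within the lists of long fragment estimate the lengths were 2.51 kb in DMSO and 4.09 and 2.97 kb in doxycycline, and within the short ones 1.71 and 1.97 kb in DMSO and 3.02 kb in doxycycline. Per 100 Mb covered in its list, the lengths overlapped. The median difference in H3K27me3 length, doxycycline minus DMSO, was 4.435 kb over all genes and 0.33 kb over the 10 members, with 2 of the 3 doxycycline lists and 1 of the 3 DMSO lists being of the long kind.

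H3K27ac at GDNF differed between its starts. At the downstream start, about 6 kb into the gene, the region was covered over 2.25, 1.54 and 1.65 kb in DMSO and 0.91, 0.70 and 0.57 kb in doxycycline, and its percentile was 76.4, 68.1 and 70.4 against 37.9, 36.7 and 17.5. At the first start the percentile was 75.5, 64.1 and 59.2 in DMSO and 79.4, 68.7 and 74.1 in doxycycline. The downstream start was lower without overlap, whereas the first start overlapped. H3K4me1 at the GDNF starts ranked at 93.3, 91.3 and 89.3 in DMSO and 83.3, 74.0 and 75.2 in doxycycline, also lower, although at the outermost start alone the ranks overlapped.

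ARTN (ENSG00000117407.17, chromosome 1, 43933320 to 43937240, plus strand), which encodes artemin, kept its active marks. Only the H3K4me1 percentile at its starts differed without overlap, at 50.7, 81.3 and 78.7 in DMSO and 47.3, 44.1 and 40.6 in doxycycline. Its H3K27ac percentile was 54.5 ± 6.29 in DMSO and 51.9 ± 15.7 in doxycycline (SD, n = 3), with overlap. Of the start-site H3K4me1 ranks of all 16445 genes, 6.84% were lower and 6.04% higher by the rule of no overlap, against 3 of the 10 members lower (GFRA3, GDNF and ARTN) and 0 higher. At the outermost start alone the H3K4me1 ranks of GDNF and ARTN overlapped, ARTN having a peak there in only 2 of 3 libraries of each treatment. With lists of equal length the ARTN ranks overlapped as well.

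**Figure D5:**
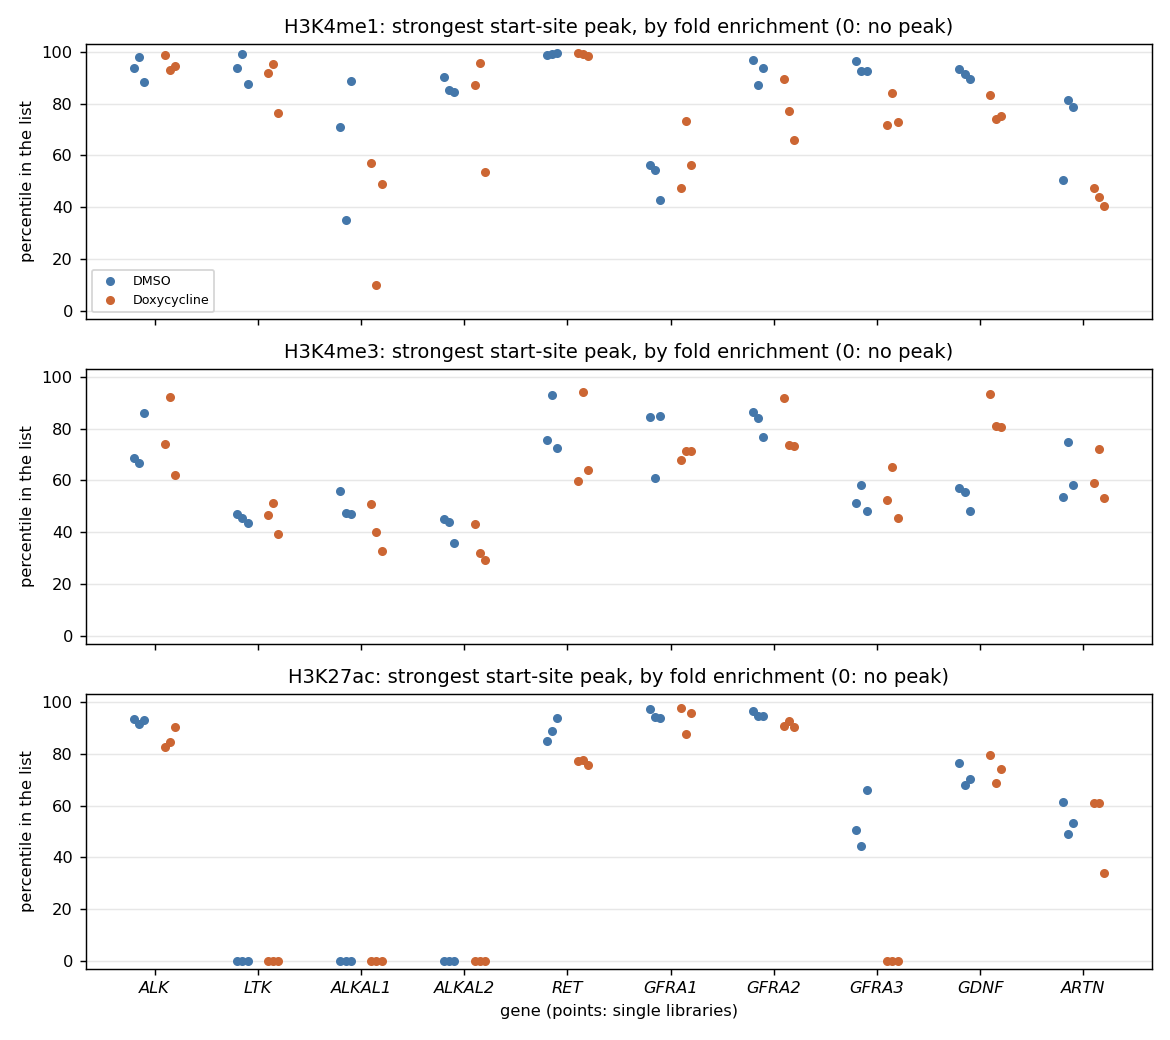
Percentile of fold enrichment of the strongest start-site peak within its list (0 where no peak was called), per library, for the 10 genes and H3K4me1, H3K4me3 and H3K27ac (blue points DMSO, orange points doxycycline). GDNF is higher in doxycycline for H3K4me3 (80.8 to 93.3 against 48.2 to 57.0), and GFRA3 falls to 0 for H3K27ac.

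ALK (ENSG00000171094.18, chromosome 2, 29192774 to 29921586, minus strand) is the longest of the 10 genes, and H3K27ac covered 407, 323 and 326 kb of its 728.8 kb body in DMSO and 433, 407 and 362 kb in doxycycline. Peaks covered 420, 333 and 345 kb of the locus in DMSO and 450, 418 and 374 kb in doxycycline. The doxycycline value was higher in each same-numbered pair, but the treatments overlapped (means 366 ± 47.3 and 414 ± 38.0 kb, SD, n = 3; exact permutation p = 0.3). In kb, 18 of 18522 genes had a larger rise, a ranking that the 728.8 kb body favours.

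H3K4me1 over ALK was 327, 257 and 291 kb in DMSO and 292, 230 and 245 kb in doxycycline, lower in each pair and overlapping. The consensus H3K4me1 regions with H3K27ac and without H3K4me3 or H3K27me3, the active class, numbered 66 in both treatments, while those without any of these marks numbered 13 in DMSO and 5 in doxycycline. The widest H3K27ac region of the gene, 82.4 kb, included an internal annotated start, and the strongest away from starts was an intronic region of 75.3 kb (29560572 to 29635839) with a mean percentile of 91.7.

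The H3K27ac percentile at the ALK starts was 93.5, 91.3 and 93.1 in DMSO and 82.5, 84.4 and 90.4 in doxycycline, lower without overlap. This rests on the peak touching the internal start. The strongest peak anywhere in that 82.4 kb region ranked at 95.9 in doxycycline replicate 1, and there the treatments overlapped. At the outermost ALK start the percentile was 77.1, 74.8 and 70.5 in DMSO and 73.9, 69.8 and 54.1 in doxycycline, also with overlap. The H3K4me3 region at that start, covered over 5.42 to 5.96 kb in DMSO and 5.39 to 5.80 kb in doxycycline, did not separate the treatments.

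LTK, ALKAL1 and ALKAL2 had H3K4me3 and H3K27me3 at the same starts. LTK (ENSG00000062524.16, chromosome 15, 41503637 to 41513887, minus strand), the receptor closest to ALK, had H3K27me3 start-site peaks 2.36, 1.93 and 1.95 kb wide in DMSO and 2.50, 2.32 and 1.51 kb wide in doxycycline. They ranked at percentile 99.2, 100.0 and 87.3 in DMSO and 98.1, 99.6 and 96.1 in doxycycline, near the top of their lists throughout. Its H3K4me3 peak ranked at 45.3 ± 1.60 in DMSO and 45.7 ± 6.09 in doxycycline (SD, n = 3), with overlap.

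ALKAL2 (ENSG00000189292.17, chromosome 2, 279558 to 288851, minus strand) encodes a secreted ligand of ALK and LTK. Its H3K27me3 start-site percentile was 99.7, 99.8 and 95.9 in DMSO and 98.9, 99.6 and 71.3 in doxycycline, and the widths of 4.48, 3.16 and 3.53 kb and 6.82, 4.87 and 2.52 kb overlapped. The narrowest of the doxycycline peaks was in replicate 3, a list of short fragment estimate. H3K27ac covered 4.32, 4.24 and 3.58 kb of its locus in DMSO and 2.68, 2.63 and 1.76 kb in doxycycline, without overlap. None of that H3K27ac lay in the gene body, and within 50 kb the treatments overlapped.

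ALKAL1 (ENSG00000196711.9, chromosome 8, 52534037 to 52565430, minus strand), the other ALK ligand, had the least H3K27ac, with 0.717 ± 0.625 kb in DMSO and 0.803 ± 0.702 kb in doxycycline. Its H3K27me3 start-site peak was 5.88, 2.81 and 2.25 kb wide in DMSO and 8.15, 6.75 and 1.01 kb in doxycycline. The 3 widest of these were from the 3 lists of long fragment estimate, and within the lists of short estimate the peak was 2.81 and 2.25 kb wide in DMSO and 1.01 kb in doxycycline. In no library was an H3K27ac peak called at the starts of LTK, ALKAL1 or ALKAL2.

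Among the loci, few regions separated the treatments completely. For H3K4me1, 9 of 363 merged regions had a peak in every DMSO and no doxycycline library and 1 the reverse (2.48% and 0.275%), against 1.45% and 0.313% of all 188491 regions. For H3K27ac it was 3 and 1 of 273, against 2.7% and 0.6% of all regions. For H3K4me2 it was 1 and 0 of 262, against 0.291% and 0.18%. For H3K4me3 it was 0 of 61, against 0.893% and 0.45%, and for H3K27me3 0 of 60, against 0.0386% and 0.42%. With 0 to 9 regions behind each share, these are descriptions of the loci and nothing more.

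The H3K27ac regions lost were the GFRA3 start, an ALK intron region (29436442 to 29437509) and a region 70.2 kb upstream of ALKAL2 (358589 to 359603). The 3 H3K4me1 regions lost with the highest within-list percentile of −log10 q were in an ALK intron (29637103 to 29639064, −log10 q-values 2.44 to 5.3), in a GFRA3 intron (138261365 to 138262506) and in a GFRA1 intron (116109798 to 116112662). The 1 H3K4me1 region gained was also in a GFRA1 intron (116174693 to 116175437), and the 1 H3K4me2 region lost was in an ALK intron (29561845 to 29563214). Of these 15 separating regions, 11 had no peak with a −log10 q-value above 3.5, the other 4 being 3 in ALK introns and the GFRA3 start.

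Same-numbered libraries deviated together in 4 of 5 marks, so the treatments were also compared within the 3 pairs of equal replicate number. H3K27ac was longer in doxycycline in all 3 pairs for 5 members (ALK, LTK, RET, GFRA2 and ARTN) and shorter for 3 (ALKAL2, GFRA1 and GFRA3), against 18.5% and 30.6% of all genes. H3K4me1 was shorter for 6 and longer for RET alone, against 43.1% and 9.4%. H3K4me3 was longer for 3 (RET, GFRA2 and ARTN) and shorter for 1, against 10.9% and 34.8%, and H3K4me2 was longer for 4 and shorter for GFRA1 alone, against 16.6% and 1.63%. RET was longer in all 3 pairs for each of these 4 marks. H3K27me3, whose pairs did not all correlate, was longer for 3 (LTK, RET and GDNF) and shorter for 0, against 42.7% and 0.526%. For the start-site percentile, 15 of 42 combinations of member and mark were lower in all 3 pairs and 3 were higher (35.7% and 7.14%), where 18.5% of all combinations of gene and mark were lower and 15.7% higher. A sign test on 3 pairs cannot give a two-sided p below 0.25.

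By the rule of no overlap, 0 members differed in H3K4me2 coverage, where 0.288% of genes were shorter and 0.283% longer. No member differed in the start-site percentile of H3K4me2 (4.79% of genes lower and 5.59% higher) or of H3K27me3 (2.48% lower and 3.45% higher). For the H3K27ac start-site percentile, 4 of the 7 members with a peak were lower (ALK, RET, GFRA2 and GFRA3) and 0 higher, against the 11.8% and 6.22% of genes given above. Of these 4, GFRA3 alone stayed separated under every alternative setting, while ALK, RET and GFRA2 each overlapped under at least 1. Over the 5 marks and both measures, 11 of 92 member differences were called lower and 4 higher (12% and 4.35%), against 5.85% and 3.21% for all genes. No gene of any mark had an adjusted p under 0.05, since none could have an exact p below 0.1.

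Other genes of the pathways were examined as lists. Of 10 further ligands and co-receptors, 6 had H3K4me3 and 4 had H3K27ac at a start in 6 of 6 libraries, and 3 had H3K27me3. Among them were MDK, NCAM1, SDC3 and GDF15 with H3K27ac, and NRTN, GFRA4 and PTPRZ1 with H3K27me3. None of the 10 was called for H3K27ac coverage. In H3K4me3, 2 were shorter (GFRA4 and PTPRZ1) and 0 longer (20% and 0%, against 4.64% and 1.22% of all genes). In H3K4me2, 1 was shorter (PTN) and 0 longer (10% and 0%, against 0.288% and 0.283%). With 1 or 2 genes behind each share, these are descriptions of the list. NRTN, the neurturin gene, had H3K27me3 over 134.5, 118.8 and 99.5 kb of its locus in DMSO and 137.4, 133.5 and 114.8 kb in doxycycline, with overlap.

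Of 22 adaptors and signalling genes, 20 had H3K27ac at a start in every library, and 3 were shorter and 0 longer in H3K27ac coverage. The share shorter, 13.6%, is much the same as the 13.8% of all genes, so the 3 genes below are a description and no result about the list. PIK3R1, a regulatory subunit of PI3K, went from 37.0, 30.8 and 33.2 kb to 16.0, 19.3 and 20.3 kb. DOK5, an adaptor of RET, went from 18, 13.1 and 14.9 kb to 5.4, 4.4 and 5.3 kb, and FRS2, an adaptor of both receptors, from 8.7, 6.4 and 7.6 kb to 3.9, 4.1 and 3.9 kb. None of the 3 overlapped between treatments. DOK5 had H3K27ac at a start in 0 of 6 libraries and H3K27me3 in 6 of 6, so the H3K27ac of its locus lay away from its starts.

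Of 11 feedback and target genes, all had H3K4me3 and H3K27ac at a start in 6 of 6 libraries. SPRY4, an inhibitor of receptor signalling, was longer in H3K27ac in doxycycline, at 75.7, 66.7 and 67.0 kb against 56.0, 43.1 and 45.9 kb. DUSP6, an ERK phosphatase, was shorter, at 13.1, 15.6 and 18.6 kb against 24.9, 20.5 and 24.4 kb, and SPRY1 and SPRY2 were shorter by smaller amounts. In all, 3 of the 11 feedback genes were shorter and 1 was longer in H3K27ac (27.3% and 9.09%, against 13.8% and 2.93% of all genes). In H3K4me3, 2 were shorter (ETV1 and HBP1) and 1 was longer (18.2% and 9.09%, against 4.64% and 1.22%). The longer one was DUSP6, at 6.1, 6.2 and 5.8 kb in doxycycline and 5.8, 5.8 and 5.4 kb in DMSO, where the unrounded values did not overlap. Of 11 transcription factors known for RET or ALK, 1 was shorter (HAND2, 61.5, 56.5 and 55.8 kb in DMSO and 47.4, 47.5 and 44.2 kb in doxycycline) and 0 longer in H3K27ac. That is 9.09%, no more than the share of all genes. In H3K4me1 and in H3K4me3, 1 of the 11 was longer and 0 shorter. Each is 9.09%, against 1.08% and 1.22% of all genes longer, with 1 gene behind each share.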

How the data were processed

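Peak lists of 30 ChIP-seq libraries were analysed, 5 marks in 2 treatments with replicates 1 to 3. The labels name 34 samples. Whether replicates came from separate cultures was not stated, so differences may hold technical spread only. Members and gene lists were chosen with earlier results of these data known.

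The authors aligned reads to hg38 with Bowtie2, kept mapping quality 30 or more and called peaks per library against an input with MACS2 2.1.1.20160309. Broad mode (q 0.05, weaker regions linked at q 0.1) served 18 lists, those of H3K27ac, H3K27me3 and H3K4me1, and narrow mode (p 1e-5) the other 12, all on single-end reads of 101 bp, per the file headers. The methods state q 0.05 throughout and paired-end sequencing, and the headers were followed. The inputs of replicates 1 and 3 had the same read totals. The deposited pileup is fragment coverage (signal). Both significance columns, −log10 of the p-value and −log10 of the q-value, are as deposited. The deposited fold enrichment is a ratio to local input and, like them, depends on depth. Fold enrichment was used as a percentile within each list, and lost weak peaks at lower depth can shorten covered length.

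GENCODE release 44 gave starts and bodies (chromosomes 1 to 22 and X). Intervals were merged where they shared 1 bp or more. Covered length, start-site peaks and percentiles were compared by an exact two-sided permutation test over 20 assignments with Benjamini-Hochberg adjustment over all genes, in python 3.11.15 with numpy 2.4.6 and pandas 2.3.3. The functions were checked against bedtools 2.31.1 (10 of 10 loci) and tested on simulated data. Regions were named by within-list percentile: for each locus the H3K27ac region away from starts with the highest fold enrichment percentile, and per mark and direction up to 3 separating regions with the highest −log10 q percentile, averaged over the libraries with a peak. After removing group means, libraries of equal number correlated at 0.171 to 0.602 in each pair of every mark except H3K27me3 (0.797, -0.234 and 0.657). This pairing comes from the data, and the labels do not say what a number marks. Alternatives were a −log10 q of 3, lists of equal length, other windows and starts, leaving out replicates, pairs, and covered length per 100 Mb, the last chosen after seeing the data.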

Additional observations from a re-analysis of the deposited data

How the results depend on the processing

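Leaving out a replicate cannot make separated values overlap, and separated values always keep 1 direction in the same-numbered pairs. Neither setting therefore says anything of the stability of the 15 member differences called, and both can only add calls. Under the other alternatives, 4 of the 15 kept direction and separation throughout (RET H3K27ac length, GFRA3 start-site H3K27ac and H3K4me1 percentile, and GDNF H3K4me3 percentile). The GFRA1 H3K27ac length reversed in the gene body alone (difference 1.24 kb, with overlap), since its loss lay in the flanks. The calls that lost separation did so with windows of 50 kb or the body only, at the outermost start, with lists of equal length, at a −log10 q of 3, or per 100 Mb covered. The cause was not tested.

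At a −log10 q of 3 or more, members with a start-site peak in every doxycycline library numbered 6 for H3K4me1 and 2 for H3K27me3, and 0 were called for H3K4me1 length. With lists of equal length the H3K4me1 length was called for 3, and separating regions numbered 2 for H3K4me3 and 11 for H3K27ac. Within 50 kb, the calls were 2 for H3K4me1, 0 for H3K4me3 and 2 for H3K27ac, and in the body alone 3 for H3K4me1 and 1 for H3K27ac, with 2 separating H3K27ac regions. Without peaks at the starts of other genes H3K4me1 was called for 2. Per 100 Mb covered, the calls were 2 for H3K4me1, 3 for H3K4me2 and 0 for H3K27me3. At the outermost start 5 percentiles were called.

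In the replicate block (the same direction in all 3 same-numbered pairs), the length was called for 7 members in H3K4me1, 5 in H3K4me2, 4 in H3K4me3, 8 in H3K27ac and 3 in H3K27me3 (whose pairs did not all correlate), and the percentile for 18 pairs of gene and mark. Regions present in only 1 library of a pair averaged 92.3, 60.3, 10.3, 78.3 and 16.7 in the same order of marks under the block.

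With 1 replicate left out, length calls ranged from 1 to 6 in H3K4me1, 0 to 4 in H3K4me2, 1 to 2 in H3K4me3, 4 to 5 in H3K27ac and 1 to 3 in H3K27me3, percentile calls from 8 to 14, and separating regions from 12 to 22, 1 to 6, 0 to 2, 6 to 13 and 0 to 1.

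The lower calling depth of every doxycycline library limits each shorter length and each peak not called, and weak regions with −log10 q-values under 3 are the most exposed.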
